A study of Mus musculus with 80 samples.

Results

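Metabotropic glutamate receptors were examined in single cells of the mouse substantia nigra pars reticulata (SNr), an output nucleus of the basal ganglia. The members were 6 genes, taken by symbol from the expression table: Grm5 of group I, Grm2 and Grm3 of group II, and Grm4, Grm7 and Grm8 of group III. They are 6 of 22815 genes in the table, and the other members of the family were not analysed here. Cells came from acute slices of GAD1-EGFP mice, recorded as strain C57Bl/6, in which GABAergic neurons carry green fluorescent protein (GFP) through a Gad1 transgene. They were picked by hand after dissociation, and each cell was a library of its own made with SMART-seq2, which reads whole transcripts. The GFP-positive cells numbered 9 at postnatal day (P) 14, 23 at P15, 29 at P16 and 11 at P20, and the GFP-negative cells 3 at P14, 2 at P15 and 3 at P16. The labels name no treatment and do not say which animal a cell came from.

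These receptors are G protein-coupled receptors for glutamate, the transmitter of the subthalamic input to the SNr. Group I receptors couple to Gq and phospholipase C, usually sit around the postsynaptic density and tend to excite the neuron. Groups II and III couple to Gi/o, lower cyclic AMP, close calcium channels and often act on nerve terminals to reduce transmitter release. A transcript in a soma therefore says nothing about where in the cell the receptor is placed, since a terminal receptor is made from mRNA in the soma as well.

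Expression is given as log2(TPM + 1), where TPM is the number of transcripts of a gene per 1000000 in the cell, a measure corrected for transcript length. Detection means a TPM over 1. Of the 72 GFP-positive cells, the 62 that passed 5000 detected genes were used. These 62 cells held 5094 to 10236 detected genes. Their depth was estimated at 150719 to 6204288 fragments (median 1786703). This holds only if FPKM were scaled by the total of each cell, which is not known. Of the markers of GABAergic neurons, Gad1 and Gad2 were detected in 62 of 62 cells and Slc32a1 in 59. Of the dopaminergic markers, Th was detected in 4 cells, Ddc and Slc6a3 in 5 each, and Slc18a2 in 30 (48.4%, mean 2.19). Of the glutamatergic markers, Slc17a8 was detected in 2 cells and Slc17a6 and Slc17a7 in 0, which allows a share of up to 4.84%. Transcripts listed as markers of other cell types were present too, unevenly within each list. Of the 8 oligodendrocyte markers, detection ran from 61 cells for Mbp to 2 for Opalin. Of the 9 astrocyte markers, it ran from 62 cells for Aldoc to 4 each for Gjb6 and Aldh1l1, with Gja1 in 26. Because a condition is 1 sample without labelled animals, no test was made across cells. An SD describes the spread from cell to cell, and intervals for shares of cells are exact (Clopper-Pearson, 95%) and cover counting error only.

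The SNr neurons contained Grm5, Grm7 and Grm3 in most cells, Grm8 and Grm4 in a minority, and Grm2 in 1 cell. Thus 3 of the 6 receptors were found in 50% or more of the cells, against 35.2% of all genes in the table. All 6 were detected in at least 1 cell, against 75.2% of all genes.

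**Figure D1:**
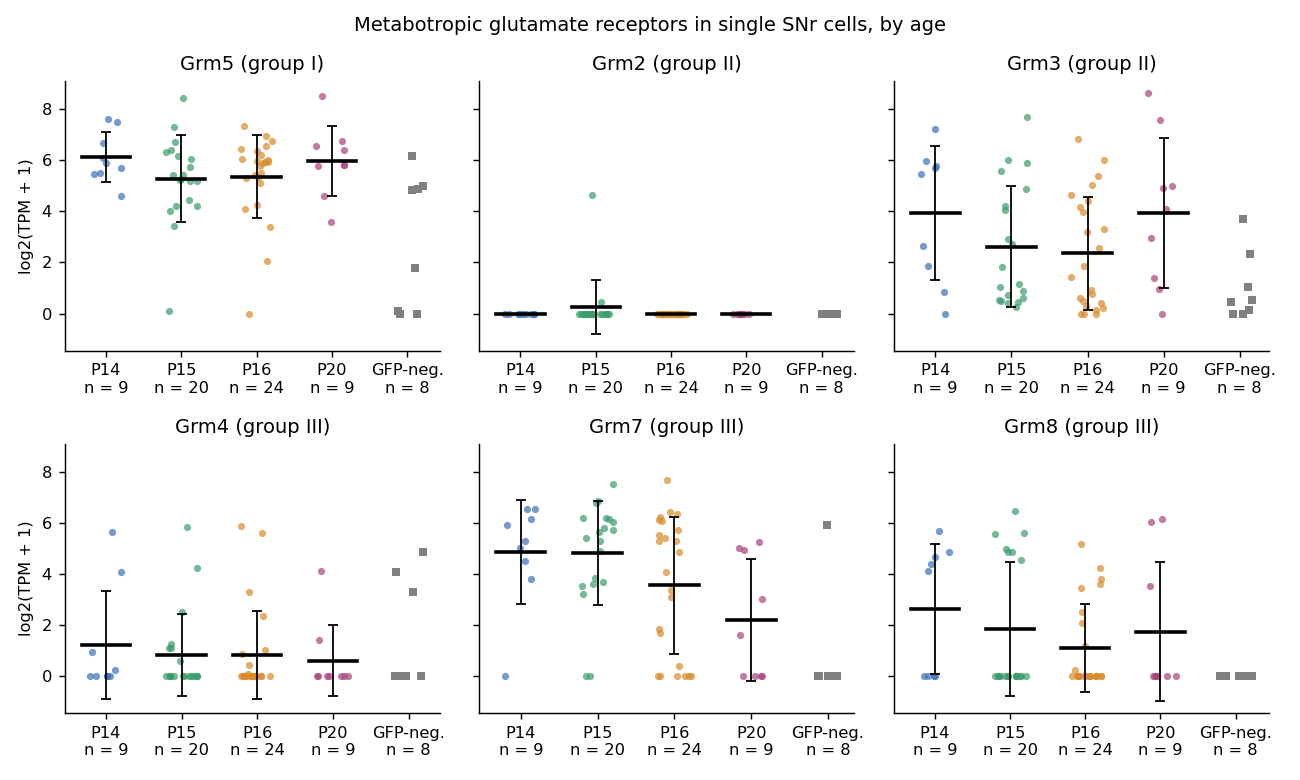
Expression of each receptor, as log2(TPM + 1) on the vertical axis, in single GFP-positive cells at each postnatal day and in the 8 GFP-negative cells of all ages (grey squares). Points are cells, thick lines are means and whiskers are the SD over cells. Grm5 lies at a mean of 5.26 to 6.12 at the 4 ages, Grm7 goes from 4.86 at P14 to 2.20 at P20, and Grm8 and Grm2 are at 0 in every GFP-negative cell.

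Grm5, the group I receptor that releases calcium from stores through phospholipase C, was the most highly expressed. It was detected in 60 of 62 cells (96.8%, interval 88.8% to 99.6%), at a lowest value of 0, a median of 5.79 and a highest value of 8.49. Its mean was 5.53 ± 1.55 (SD, n = 62 cells), which placed it at the 91.0th percentile of all genes in the table. Mean levels at P14, P15, P16 and P20 were 6.12, 5.26, 5.36 and 5.97, so the ages differed by less than the spread between cells of 1 age. Detection was well above the counting floor, with a median of 381 estimated fragments in the detected cells. Both cells without Grm5, 1 at P15 and 1 at P16, had few detected genes for this set, at 5892 and 5683, but more estimated fragments than the median cell, at 3888456 and 2448945.

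Among the group II receptors, which lower release at terminals and respond to glutamate spilled out of the synapse, the pair differed widely. Grm3 was detected in 39 of 62 cells (62.9%, interval 49.7% to 74.8%), with a lowest value of 0, a median of 2.59 and a highest value of 8.61, and a mean of 2.90 ± 2.47. It was the receptor with the widest range, and its highest cell exceeded the highest cell of Grm5. The means at P14, P15, P16 and P20 were 3.94, 2.62, 2.36 and 3.94. Grm3 lay above 0 in 57 cells, but in the 18 of them with a TPM under 1 the value stood for 0.846 to 1.74 estimated fragments. Of the 39 cells counted as detected, 32 held at least 10 fragments and 5 held fewer than 3.

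Grm2 was above a TPM of 1 in 1 of 62 cells (1.61%, interval 0.0408% to 8.66%). That cell, at P15, held it at 4.64 from an estimated 171 fragments, and 60 cells were listed at 0. The group II signal of these neurons was thus almost all Grm3: a member of the group was detected in 40 cells, 39 of them through Grm3. The exons of Grm2 overlap those of another annotated gene, Gm28111, and reads of the pair may not be separable.

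The group III receptors, which restrain release at terminals, were led by Grm7. This receptor has a low affinity for glutamate and is typically placed in the active zone. It was detected in 48 of 62 cells (77.4%, interval 65.0% to 87.1%), with a lowest value of 0, a median of 4.96, a highest value of 7.68 and a mean of 3.96 ± 2.49. Grm7 was at 0 or well expressed in most cells. In the detected cells the median was 139 estimated fragments, 43 of these 48 cells held at least 10, and 1 further cell lay between 0 and a TPM of 1.

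Grm8, a group III receptor of high glutamate affinity, was detected in 23 cells (37.1%, interval 25.2% to 50.3%), and its mean over all 62 was 1.66 ± 2.30. The median was 0 and the highest value 6.48, while the 23 detected cells averaged 4.45. Cells with Grm8 were therefore not cells with a trace of it: 20 of the 23 held at least 10 estimated fragments. Grm4 was detected in 15 cells (24.2%, interval 14.2% to 36.7%), with a median of 0, a highest value of 5.88 and a mean of 0.85 ± 1.67. Its detected cells were lower, at an average of 3.29, and 10 of the 15 held at least 10 fragments.

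In order of mean level the receptors were Grm5, Grm7, Grm3, Grm8, Grm4 and Grm2. Grm5 exceeded Grm7 by 1.57 (SD 1.42 over the 4 age means) and was higher at 4 of 4 ages. Grm7 exceeded Grm3 by 1.06, less than the SD of 1.68 over ages, and the difference turned to -1.74 at P20, so these neighbours in the order did not differ beyond their spread. The remaining steps were 1.24 from Grm3 to Grm8 (SD over ages 0.59), 0.81 from Grm8 to Grm4 (0.49) and 0.77 from Grm4 to Grm2 (0.29), each in the same direction at 4 of 4 ages. From cell to cell the differences varied by more than each step, with SDs of 2.50, 3.70, 3.46, 2.98 and 1.79 down the order. Grm8 was above Grm4 in 23 of 62 cells, below it in 14 and equal in 25.

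Summed over the 62 cells, Grm5 made up 45.0% of the TPM of the 6 receptors, group II 19.7% and group III 35.3%. Within a cell the median shares were 43.2%, 8.66% and 37.1%, so the pooled share of group II was above its median share within a cell. The cell with the most Grm3 held 391 TPM. Group I was the highest of the groups in 30 cells, group III in 22 and group II in 10. These are shares of transcripts, and they do not give shares of receptor protein.

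Of the 6 receptors, Grm7 had the largest spread between ages. It was detected in 8 of 9 cells at P14, 18 of 20 at P15, 17 of 24 at P16 and 5 of 9 at P20, with medians of 5.30, 5.53, 4.47 and 1.61. The means were 4.86 ± 2.04, 4.82 ± 2.05, 3.56 ± 2.68 and 2.20 ± 2.37 (SD over cells), and cells of the oldest and youngest ages overlapped. A mean that is lower at each later age was seen for 12.6% of genes present in 50% or more of the cells, and a mean over 2 lower at P20 than at P14 for 5.64% of them. The median depth was 1117163 estimated fragments at P14, 2210475 at P15, 1929064 at P16 and 557758 at P20, and the detected genes averaged 8627, 7939, 7883 and 7511. The part of depth in the age pattern was not tested, and age cannot be told apart from the animals and preparations of each day.

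For the other receptors the ages showed no common direction. Grm8 had means of 2.64, 1.84, 1.10 and 1.75 from P14 to P20, and Grm4 of 1.21, 0.83, 0.81 and 0.61. Grm4, like Grm7, was thus lower at each later age, though the change was small beside its SD over cells of 1.67. Grm8 was lowest at P16. Each had 2 or more cells detected at every age. The number of the 6 receptors detected per cell averaged 3.44, 3.15, 2.75 and 2.89 at the 4 ages.

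Most neurons contained receptors of more than 1 group. A cell held 3 ± 0.887 of the 6 receptors (SD, n = 62): 2 cells held 1, 16 held 2, 26 held 3, 16 held 4 and 2 held 5. All 3 groups were detected in 32 cells, groups I and III without group II in 20, and groups I and II without group III in 7. The remaining 3 cells held group I alone, group III alone, and groups II and III.

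There were 15 combinations of receptors. The most frequent was Grm5 with Grm7 and Grm3 in 11 cells, followed by the same set with Grm8 in 9, Grm5 with Grm7 in 8 and Grm5 with Grm3 in 7. Within group III, 8 cells had no member, 25 had 1, 26 had 2 and 3 had all 3. Grm7 and Grm8 were detected together in 18 cells, Grm7 and Grm4 in 12, and Grm8 and Grm4 in 5.

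**Figure D2:**
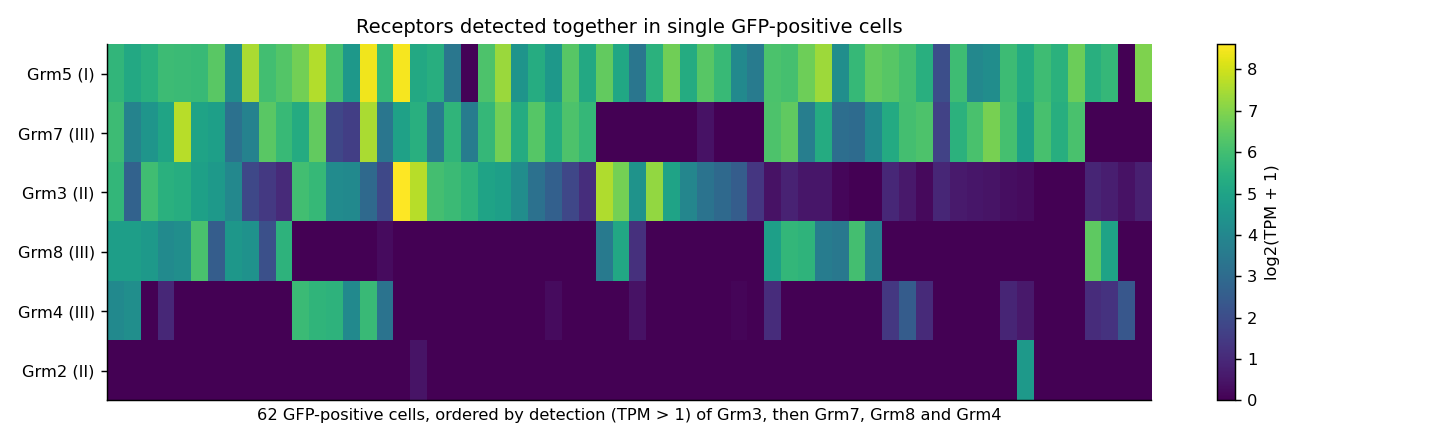
Colour gives log2(TPM + 1) of the 6 receptors (rows, with their group) in each of the 62 GFP-positive cells (columns), ordered by detection of Grm3, then Grm7, Grm8 and Grm4. Grm5 runs across 60 of the cells, and Grm7 is found on both sides of the step in Grm3.

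The receptors were also compared in pairs. Grm7 was detected in 74.4% of the 39 cells with Grm3 and 82.6% of the 23 without. It was detected in 78.3% of the 23 cells with Grm8 and 76.9% of the 39 without. Grm3 was detected in 53.3% of the 15 cells with Grm4 and 66.0% of the 47 without. These pairs were not tested. Across the 62 cells, Pearson's r was -0.12 between Grm7 and Grm3, -0.04 between Grm7 and Grm8, and -0.10 between Grm8 and Grm4. The highest of the 15 pairs was 0.30, between Grm5 and Grm7 (Spearman's rho 0.27). Both of these also went with the number of detected genes in the cell, at r = 0.32 for Grm5 and 0.31 for Grm7, and the part of this in their relation was not tested. For Grm8 r with the number of genes was 0.37, and cells with it held 8607 genes on average against 7570 without, while the median depths were 1743118 and 1832883 fragments.

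Grm3 had the clearest partners. By a fixed rule (the 3 highest r among genes found in 50% or more of the cells whose r was above 0 at each age), the genes most like Grm3 were Zfhx3, Foxp2 and Gata3. All 3 are transcription factors: Zfhx3 is a zinc finger homeobox protein, Foxp2 a forkhead protein, and Gata3 a zinc finger protein used in the making of midbrain and brainstem GABAergic neurons. Zfhx3 had r = 0.71 (rho 0.73) over 62 cells, Foxp2 0.68 (rho 0.62) and Gata3 0.60 (rho 0.64). They were also the 3 highest of all 8026 genes compared, over which r with Grm3 averaged -0.06.

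Foxp2 was bimodal in these neurons and the split followed Grm3. It was detected in 34 of the 39 cells with Grm3 (87.2%) and in 2 of the 23 without (8.70%). Read the other way, Grm3 averaged 4.43 ± 2.05 in the 36 cells with Foxp2, 34 of which had it detected, and 0.78 ± 0.96 in the 26 without, 5 of which did. The highest Grm3 value among the cells without Foxp2 was 4.08, so the distributions overlapped in a few cells.

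The rule itself required r above 0 at each age, so the direction by age is a description only. Cells with Foxp2 exceeded those without in mean Grm3 by 4.43 at P14 (8 against 1 cell), 3.38 at P15 (11 against 9), 3.53 at P16 (12 against 12) and 4.20 at P20 (5 against 4). The cells with both genes numbered 7 of 9, 10 of 20, 12 of 24 and 5 of 9. Within ages, r between Grm3 and Foxp2 was 0.43, 0.66, 0.78 and 0.68, between Grm3 and Zfhx3 0.62, 0.65, 0.69 and 0.88, and between Grm3 and Gata3 0.51, 0.60, 0.62 and 0.70.

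Zfhx3 and Gata3 were graded rather than split. Zfhx3 averaged 3.37 ± 1.56 in cells with Grm3 and 1.10 ± 0.96 in those without, and Gata3 7.19 ± 1.52 and 4.78 ± 2.26. Gata3 was detected in 61 of the 62 cells, so its relation to Grm3 is one of level. In the 39 cells with Grm3 alone, r was 0.49 for Zfhx3, 0.31 for Foxp2 and 0.52 for Gata3.

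**Figure D3:**
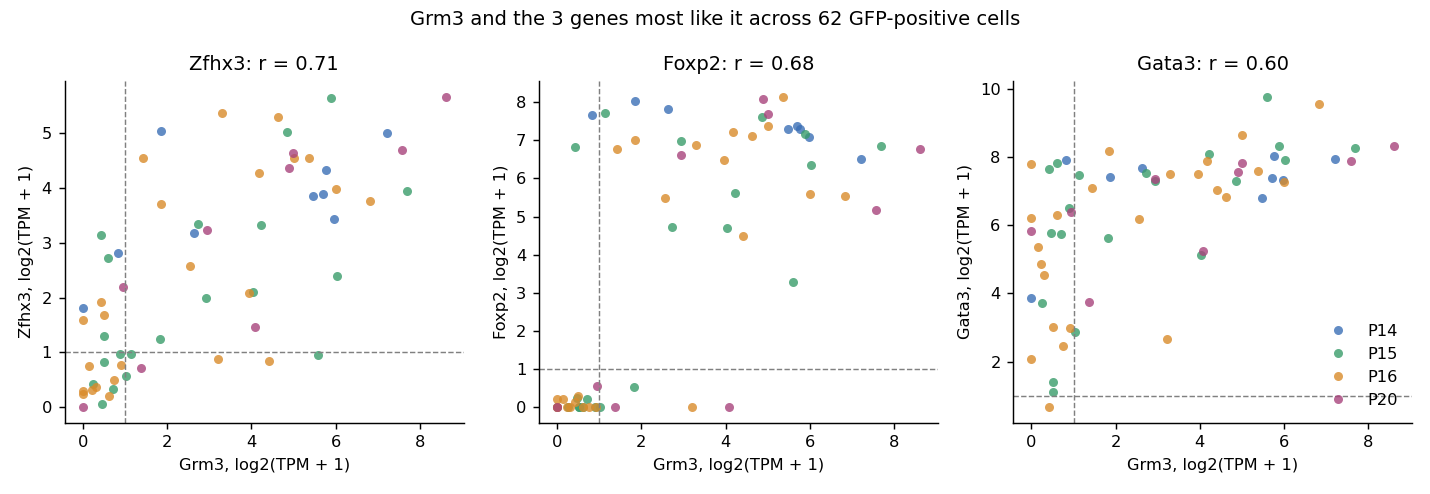
Grm3 (horizontal axis) against Zfhx3, Foxp2 and Gata3 (vertical axes), all as log2(TPM + 1), in 62 GFP-positive cells coloured by postnatal day. Dashed lines mark a TPM of 1. In the Foxp2 panel 34 cells lie above both lines and 21 below both.

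The other receptors did not show this split. Between the 36 cells with Foxp2 and the 26 without, Grm5 was detected in 97.2% and 96.2%, Grm7 in 75.0% and 80.8%, Grm8 in 41.7% and 30.8%, and Grm4 in 22.2% and 26.9%. The means differed by 0.35 for Grm5, -0.17 for Grm7, 0.23 for Grm8 and 0.45 for Grm4. Foxp2 was taken for this comparison after its values were seen, because of its high r with Grm3. The larger difference for Grm3 (3.65) was therefore set by that choice and is not a separate result.

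Grm3 is also a known astrocyte receptor, so the astrocyte list was set beside it. The 9 astrocyte markers averaged 3.02 ± 1.39 (range 1.33 to 7.46) in cells with Grm3 and 2.59 ± 0.93 (1.31 to 4.90) in cells without, 8 of the 9 markers being higher with Grm3. Across cells the astrocyte list had r = 0.11 with Grm3, and the 8 oligodendrocyte markers had r = -0.07. The astrocyte list averaged 3.00 in cells with Foxp2 and 2.67 in cells without. Cells with Foxp2 held 7790 detected genes against 8183 without, and r of Grm3 with the number of genes was -0.21. The part of the astrocyte transcripts in the level of Grm3 was not tested beyond these values.

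The genes most like the other receptors were less marked. For Grm5 they included Ank3, the scaffold of the axon initial segment (r = 0.68), and Eprs, a transfer RNA synthetase (0.64). In the 60 cells with Grm5 these were 0.42 and 0.41, so the 2 cells without Grm5 carried part of them, and at P20 r with Ank3 was 0.04. For Grm7 they were Arcn1, a coat protein of vesicles (0.53), Pacs2 (0.53) and Nktr (0.52). For Grm8 they were Cdc40, a splicing factor (0.51), Acox3, a peroxisomal oxidase (0.48), and Pdss1 (0.45). All 3 genes of Grm8 also went with the number of detected genes, at r of 0.49, 0.47 and 0.49, and the part of this was not tested.

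The GFP-negative cells gave a second view of the receptors. They were not of 1 kind, and unlike the GFP-positive cells they were not filtered by detected genes. Of the 8 cells, 4 held Th, which makes dopamine, at 12.2 to 13.2 and the dopamine transporter Slc6a3 at 11.2 to 12.9, and 3 held the myelin gene Mog at 8.75 to 13.3 with Snap25 under 1. The last cell, at P14, had neither Th nor Mog, with Snap25 at 10.1, Gad1 at 5.09 and Mbp at 12.8. The line between cells was drawn at a TPM of 100 for Th or Mog after the values were seen.

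**Figure D4:**
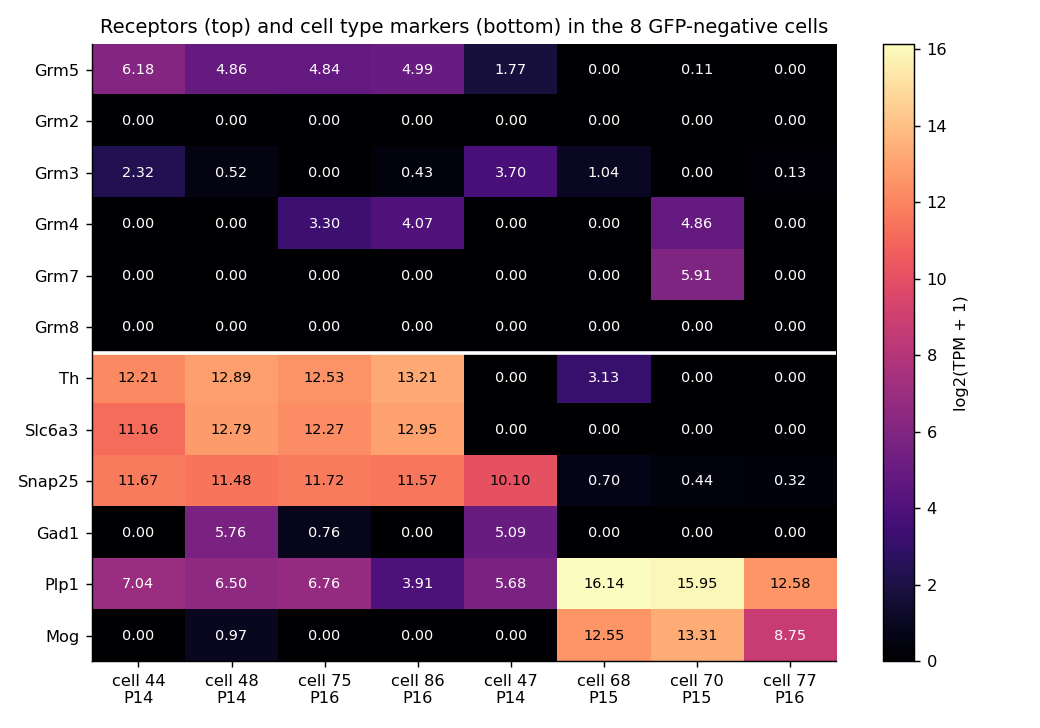
Values of log2(TPM + 1) of the 6 receptors (top rows) and of 6 marker genes (bottom rows) in each of the 8 GFP-negative cells, with the postnatal day under the cell number. The 4 cells at the left hold Th at 12.21 to 13.21 and Grm5 at 4.84 to 6.18, and Grm7 is above 0 in cell 70 only.

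In the 4 cells with Th, Grm5 was expressed as in the GABAergic neurons, at 6.18, 4.86, 4.84 and 4.99. Their mean of 5.22 lay 0.31 below that of the 62 GFP-positive cells, within the SD of 1.55. Grm5 was at 0, 0.11 and 0 in the 3 cells with Mog, and at 1.77 in the last cell, a value from about 1 fragment (0.970). Detection in all 4 cells with Th was seen for 68.4% of the genes found in a similar share of GFP-positive cells.

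Grm7 was listed at 0 in each of the 4 cells with Th, against a mean of 3.96 in the GFP-positive cells, of which 77.4% had it. Among genes detected in a share of GFP-positive cells within 5 percentage points of that of Grm7, 2.23% were likewise undetected in all 4. Only 4 cells bear on this, and the exact interval for 0 of 4 reaches up to 60.2%, for counting error only. Grm7 was present in 1 of the 3 cells with Mog, at 5.91 from an estimated 353 fragments.

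Grm8 was listed at 0 in all 8 GFP-negative cells, which allows a share of up to 37.5%, about that of the GFP-positive cells. The background was 13.9% of genes with a similar share in GFP-positive cells. Grm2 was also at 0 in all 8.

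Grm4 was the receptor with the higher mean in GFP-negative cells, at 1.53 against 0.85. It was detected in 2 of the 4 cells with Th, at 3.30 and 4.07, and at 4.86 in the cell with Mog that held Grm7. The last of these rested on 185 estimated fragments, and the other 2 on 18.4 and 119. The difference of -0.68 was less than the SD over GFP-positive cells and changed sign between ages, from 1.21 at P14 to -1.64 at P16. It became -0.20 without the cell with Mog, -0.32 and -0.43 without each of the cells with Th that held Grm4, and -1.66, -0.37 and -0.10 without P14, P15 and P16.

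Grm3 was low in the GFP-negative cells. It was detected at 2.32 in 1 cell with Th, at 1.04 in 1 with Mog and at 3.70 in the cell with neither. The first and last of these stood for 0.838 and 1.74 estimated fragments in shallow cells. No GFP-negative cell held more than 5.12 fragments of Grm3. The one GFP-negative cell with Foxp2 (6.45) was the cell with Th that held Grm3 at 2.32.

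Over all 8 GFP-negative cells, the means of the 62 GFP-positive cells were higher by 3.22 for Grm7, 2.68 for Grm5, 1.88 for Grm3 and 1.66 for Grm8. A difference of over 1 was seen for 26.9% of genes detected in the GFP-positive cells. The directions held at each of the 3 ages with both kinds of cell for these 4 receptors. For Grm8 the difference could not be negative at any age, since every GFP-negative cell was at 0. The same was true of Grm7 at P14 and P16. The GFP-negative mean depends on which cells were picked, since the 3 cells with Mog hold Grm5 at 0.11 or less. The unfiltered GFP-negative cells held 3897 to 9173 detected genes (median 5829.5), against a median of 8238 in the 62 cells. In the 10 GFP-positive cells left out by the filter, Grm5 and Grm3 were detected in 6 each, Grm7 in 2 and Grm8 in 0. The part of detected genes in these differences was not tested.

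Genes of both coupling pathways were measured in the same cells. Of 17 genes of the Gq pathway, 7 were found in 50% or more of the 62 cells (41.2%), and of 24 genes of the Gi/o pathway 17 were (70.8%), beside 35.2% of all genes, a share that the Gq list was close to. Gnaq, the alpha subunit used by Grm5, was detected in 62 of 62 cells at 5.66 ± 1.10, and its relative Gna11 in 59 at 5.83 ± 1.75. The phospholipase Plcb4 stood at 4.37 ± 1.87 and the protein kinase C gene Prkcb at 4.52 ± 1.19, in 58 and 62 cells. Other genes of the Gq list were detected in fewer cells: of the receptors that open calcium stores, Itpr1 was detected in 23 cells, Itpr2 in 5 and Itpr3 in 1, and of the phospholipases Plcb3 in 3 and Plcb2 in 0. On the side of groups II and III, the alpha subunit Gnao1 was detected in 62 cells at 7.04 ± 0.81. The beta and gamma subunits Gnb1 and Gng3 stood at 9.83 ± 0.62 and 8.26 ± 0.68, and Gnb5 at 7.61 ± 1.28. Beta and gamma subunits were put on the Gi/o list although they are not particular to Gi/o. The share and median of that list therefore rest in part on genes that do not set it apart from Gq.

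**Figure D5:**
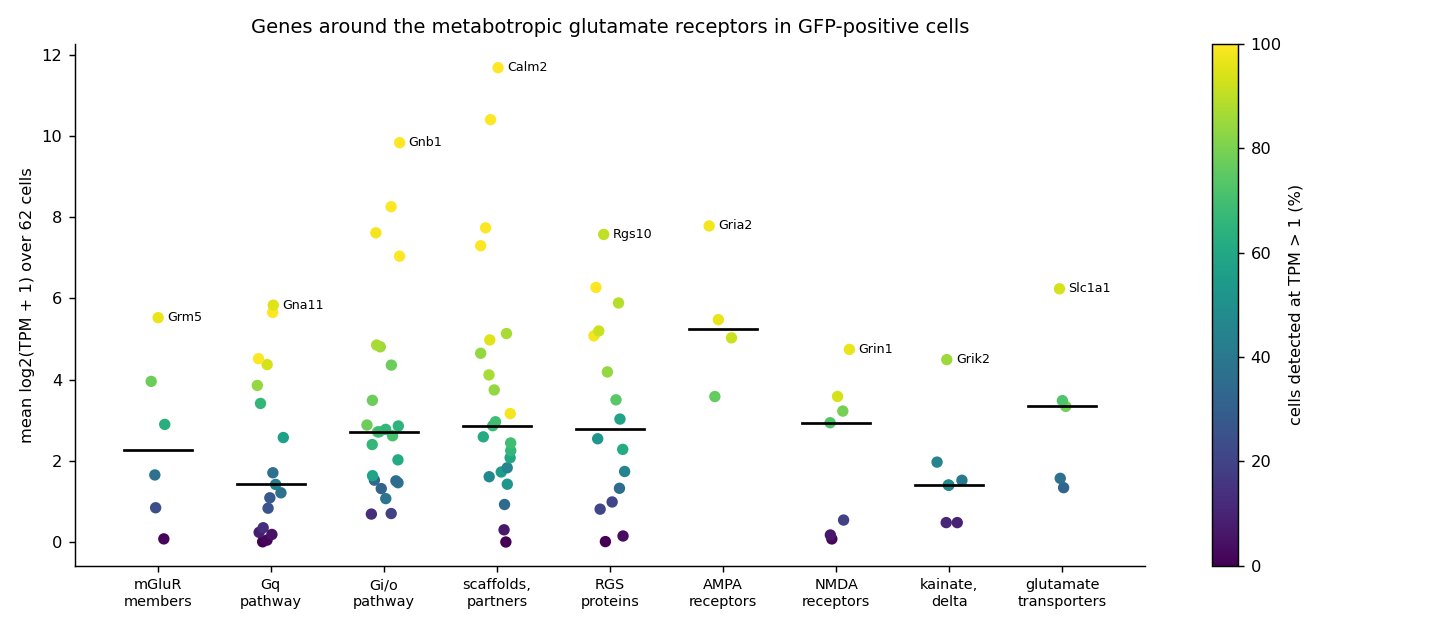
Mean log2(TPM + 1) over the 62 GFP-positive cells (vertical axis) of each gene in 9 lists, coloured by the percent of cells in which it was detected. Black lines are list medians, and the highest gene of each list is named. The median of the Gi/o list is 2.72 and that of the Gq list 1.42.

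Of the scaffolds and binding partners, 18 of 23 genes in the table (78.3%) reached detection in 50% of the cells or more, beside 35.2% of all genes. The Homer proteins, which tie Grm5 to calcium stores, were uneven: Homer1 was detected in 43 cells at 2.96 ± 2.18, Homer2 in 34 at 1.73 ± 1.51, and Homer3 in 0. Pick1, a partner of Grm7, was detected in 54 cells at 5.14 ± 2.25. Elfn1 and Elfn2, adhesion proteins that bind group III receptors across the synapse, were detected in 37 cells at 2.08 ± 1.83 and 41 cells at 2.25 ± 1.83. Calmodulin, which binds Grm5 and Grm7, was abundant, with Calm2 at 11.68 and Calm3 at 7.74, as was Ncdn (neurochondrin) at 7.30.

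Of 16 RGS genes, which speed the turning off of G proteins, 10 (62.5%) were found in 50% or more of the cells, beside 35.2% of all genes. They were led by Rgs10 at 7.58 ± 2.69, Rgs7bp, the anchor of the R7 family, at 6.27 ± 1.22, Rgs4 at 5.89 ± 2.50 and Rgs8 at 5.20 ± 1.69. The list was mixed, and 1 of its genes was detected in no cell.

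Beside the ionotropic glutamate receptors, Grm5 stood at the level of an AMPA receptor subunit. All 4 AMPA genes were present in 50% or more of the cells, beside 35.2% of all genes. They ran from Gria2 at 7.78 ± 1.47 and Gria1 at 5.48 ± 1.63 to Gria3 at 3.59 ± 2.41. Of the 7 NMDA genes 4 (57.1%) reached the same 50%, with Grin1 at 4.75 ± 1.57 and Grin2b at 3.59 ± 1.41. Of the 7 kainate and delta genes 1 (14.3%) did, Grik2 at 4.49 ± 2.30. The median gene of the metabotropic list stood at 2.28, against 5.25 for AMPA, 2.94 for NMDA and 1.41 for kainate and delta genes. Of the glutamate transporters, the neuronal Slc1a1 was the highest at 6.24 ± 2.14.

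The genes lie apart in the genome, apart from 2 on chromosome 6 (GRCm38, GENCODE M21). Grm5 spans chromosome 7 from 87584168 to 88134907 on the plus strand, Grm7 chromosome 6 from 110645581 to 111567230 (plus) and Grm8 chromosome 6 from 27275119 to 28135178 (minus). Grm3 spans chromosome 5 from 9485541 to 9725170, Grm4 chromosome 17 from 27422387 to 27521403 and Grm2 chromosome 9 from 106643095 to 106656082, all on the minus strand. Exons of Grm7 overlap those of Gm20387 and exons of Grm8 those of Mir592, and the library was not stated to keep strand.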

How the data were processed

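Single cells of the SNr were sequenced one by one (SMART-seq2, read pairs of 25 bases). Per the study's methods, the authors aligned reads with TopHat 2.0.10 to GRCm38 (mm10) and quantified transcripts with Cufflinks 2.2.1, and the submitters' processing notes also name Cuffnorm. Cells with few aligned reads were dropped by the authors. The deposited table holds FPKM, fragments scaled by transcript length and library size, for 22815 genes and 80 cells. Its gene annotation and library-size method are not given in the sources used here.

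TPM were computed as FPKM divided by the sum of the cell times 1000000, and levels as log2(TPM + 1). Detection was a TPM over 1, and the 62 GFP-positive cells that passed 5000 detected genes were used. All 8 GFP-negative cells were used, whatever their number of detected genes. Cells are not replicates and the labels name no animal, so no p-value was computed. Where a share was 0, 3 counts of the total gave its upper limit. No barcode pair was shared between cells (0) and no columns were identical (0).

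Fragments per cell were estimated from the spacing of low FPKM over 1083 genes with 1 long transcript. This assumes that the lowest step is 1 fragment. The total of a cell also assumes that its FPKM were scaled by its own total. FPKM sums ran from 194950 to 1.24e+07 over the cells, so the totals may be off by a factor that differs between cells. Comparisons with depth share this limit. Fragments of a receptor were computed from its FPKM, the step and its longest coding transcript less 200 bases. A shorter transcript would give fewer fragments. In the median cell 69.4% of the low values lay within 0.05 steps of a whole number. Counts were therefore not recovered, and no count test was run. On simulated data of the 1083 genes, 88.8% of 80 depths were recovered within 5%, and 100% of the 71 with over 40% of low values on whole steps, a share that all 80 real cells passed. Whether the FPKM of a real cell were scaled by its own total was not tested by this recovery of depths. The step that finds genes like a receptor recovered 100% of 200 genes made to follow Grm7 among 7275. These genes were made to follow it closely over all 80 cells, and the other genes were shuffled over cells. Recovery was therefore near certain, and it does not bear on how reliable the reported genes are.

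The receptors and gene lists were chosen with earlier results of these data known. The lists hold 157 entries, 156 of them in the table. The genes named with values were the 6 receptors, at most the 4 highest of each list, the Homer, Elfn, Pick1, Gnaq, Gnao1, Gria2 and Grin1 genes, marker genes, and the 3 genes with the highest r for each receptor detected in at least 25% of cells. Some genes that this rule selects are not reported here. Outside this rule, Mog, Gja1, Opalin, Gjb6, Aldh1l1, the Itpr genes, Plcb2, Plcb3 and the 3 genes with the lowest r with Grm3 were chosen after their values were seen. Alternatives were other cell filters, pseudocounts, units, summaries and thresholds, and leaving out each age or GFP-negative cell. Python 3.11.15, pandas 2.3.3 and numpy 2.4.6 were used.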

Additional observations from a re-analysis of the deposited data

Results flagged for a closer look

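In 24 groups of 4 to 10 values, 4 values stood apart from the rest by Dixon's criterion at 95%. Its chance rate of about 1 in 20 groups holds for normally distributed values. Many values here were at 0, so that rate does not apply and the number of flagged values has no chance level beside it. Among the age means of Grm2, P15 stood apart at 0.25, because 1 cell held the gene and the other ages were at 0. Among the 9 cells of P20, 1 held Grm4 at 4.10, far above the next. Among the 9 cells of P14, Grm7 was at 0 in 1 cell while the others lay at 3.82 or above. Among the 8 GFP-negative cells, 1 cell with Mog held Grm7 at 5.91, and the other 7 were at 0. That cell also held Grm4 at 4.86.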

How the results depend on the processing

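No paired analysis was possible because the cells carry no shared replicate and no result comes from a test. The order of the 6 means was the same under 10 of 11 other settings. The exception was the mean over detected cells only, where Grm2 (1 cell, 4.64), Grm3 (4.35), Grm8 (4.45) and Grm4 (3.29) ordered differently. With log2(TPM + 0.1) the levels of Grm8, Grm4 and Grm2 were -0.45, -1.58 and -3.16. The log2 of the mean TPM plus 1 gave 6.12 for Grm5, 5.30 for Grm7, 4.94 for Grm3, 3.57 for Grm8, 2.49 for Grm4 and 0.48 for Grm2, and log2(FPKM + 1) gave 4.56 for Grm5.

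Grm3 was in 91.9% of cells at TPM > 0 and 40.3% at TPM > 10, Grm4 in 12.9% at TPM > 5 and 11.3% at TPM > 10, and Grm5 in 100% of cells with over 7000 genes. Receptors per cell averaged 3.45 at TPM > 0, 2.65 at TPM > 5, 2.42 at TPM > 10 and 2.66 at 10 or more fragments (chosen after seeing the data).

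The excess in GFP-positive cells changed sign for Grm7 over detected cells only (-0.80, against 1 GFP-negative cell), a filter that gave no value for Grm2 and Grm8, and was 0 for Grm2 without P15. For Grm3 it was 1.63 with over 7000 genes, 2.76 with a pseudocount of 0.1, 1.61 with FPKM and 3.24 from mean TPM. A pseudocount of 0.1 gave 5.35 for Grm7 and 2.87 for Grm8, and mean TPM 3.57 for Grm8 and 0.48 for Grm2. Leaving out each age or GFP-negative cell gave 0 to 0.13 for Grm2, 1.71 to 2.40 for Grm3, -1.66 to -0.10 for Grm4, 1.88 to 3.44 for Grm5, 2.62 to 3.96 for Grm7 and 1.49 to 2.01 for Grm8. Leaving out each age moved the mean level of Grm2 between 0 and 0.13, of Grm3 between 2.72 and 3.24, of Grm4 between 0.79 and 0.89, of Grm5 between 5.43 and 5.65, of Grm7 between 3.55 and 4.26 and of Grm8 between 1.49 and 2.01 and receptors per cell between 2.92 and 3.16. The share of cells with Grm2 lay between 0% and 2.63%, and was outside its interval at 0 without P15, where its 1 cell was; the other shares stayed within theirs.

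At 25% of cells in place of 50%, 12 Gq, 5 kainate and delta and 5 transporter genes passed, at TPM > 10 8 Gi/o and 9 scaffold genes, and 3 kainate and delta genes at TPM > 0 or with over 7000 genes. The cause of these changes was not tested. A single fragment of Grm3 was worth 0.0607 to 4.98 TPM across the cells. The levels of Grm3, Grm4 and Grm8 had r of -0.05, -0.03 and -0.01 with the log2 of the estimated fragments. These r rest on totals that assume FPKM scaled by each cell's own total.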

Other observations

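The genes with the lowest r with Grm3, looked up after the relation to Foxp2 was seen, were higher on average in the neurons without it and were also found in cells with it. Nxph1, a secreted neuronal glycoprotein, had r = -0.65 (rho -0.72) over the 62 cells and -0.83 to -0.60 within the 4 ages. It averaged 2.28 ± 3.14 in the 39 cells with Grm3, 15 of which had it detected, and 7.76 ± 1.90 in the 23 without, 22 of which did. Fam84a (r = -0.64) averaged 2.66 ± 3.06 and 6.56 ± 2.27, detected in 18 of the 39 cells and 21 of the 23. Stxbp6, a binding partner of the SNARE protein syntaxin (r = -0.63), averaged 4.06 ± 2.92 and 7.67 ± 1.78, detected in 28 and 22. Within ages r was negative at 4 of 4 for all 3 genes, at its weakest -0.29 for Fam84a and -0.12 for Stxbp6.

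The 10 GFP-positive cells with 5000 genes or fewer, left out above, held Grm5 in 6, Grm3 in 6 and Grm7 in 2. Grm2, Grm4 and Grm8 were detected in 0 of them, which allows a share of up to 30.0%.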
